A study of Mus musculus with 15 samples.

Results

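The BCL2 family decides whether a cell's mitochondria release the proteins that start cell death, and 10 of its genes were followed here through wild-type, Apc-deleted and P-Rspo3 intestinal organoids. The genes were taken as a fixed list by symbol, by a rule that uses no measured value, though with earlier results of these data known, and they are 10 of the 43629 genes in the count table. They fall into 3 roles. Bcl2, Bcl2l1 (which encodes BCL-XL) and Mcl1 are antiapoptotic. Bax and Bak1 are the effectors. Bbc3 (PUMA), Bcl2l11 (BIM), Bid, Bmf and Pmaip1 (NOXA) are BH3-only genes. All 10 had enough reads to be tested in every comparison.

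As background, BAX and BAK form pores in the outer mitochondrial membrane, through which cytochrome c leaves to assemble the apoptosome with APAF1 and activate caspase-9. The antiapoptotic proteins bind and restrain the effectors, and the BH3-only proteins set them free by occupying the antiapoptotic proteins or by activating the effectors directly. In the intestinal crypt the family is known for setting the sensitivity of stem and progenitor cells to DNA damage, where Bbc3 is a well-studied target of p53. Bax and Pmaip1 are p53 targets too, Bcl2l11 and Bbc3 are targets of FOXO factors, and BMF and BIM are held on the cytoskeleton by dynein light chains. Much of the family is regulated as protein, by phosphorylation, cleavage and turnover, which RNA does not show.

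The data were polyA RNA sequencing of mouse intestinal organoids of the strain C57B6/129, which are crypt epithelium of the proximal small intestine grown in matrix. WT comprised 5 libraries grown in ENR (medium with EGF, Noggin and R-spondin), namely the Apc flox/flox lines 1, 2, 5 and 6, in which Apc is intact, and a dox-naive culture. Apc comprised 4 libraries of Apc delta/delta organoids of the lines 1, 2, 5 and 6, grown in EN, the same medium without R-spondin. P-Rspo3 comprised 4 libraries carrying the Ptprk-Rspo3 rearrangement, labelled 15d, 4d, M and F and also grown in EN. By the study's methods that rearrangement was cut with a doxycycline-inducible Cas9 driven through R26-rtTA, in polyclonal cultures, so a culture could hold cells with different cut ends. The dox-naive culture never received the drug. The ages of the animals are not given in the sources used here, nor how many animals the cultures came from, and the p-values then measure only the spread between these libraries, which may be partly technical. Against WT, the medium and the genotype cannot be told apart, whereas Apc and P-Rspo3 shared their medium. A further 2 libraries carry a title that does not match their genotype label, and they entered no group.

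Each of the 13 libraries held 28902729 to 35528495 counted reads. Rspo3, the gene placed under the Ptprk promoter by the rearrangement, had an FPKM (fragments per kilobase of transcript, scaled to library size) of 6.26 to 11.5 in P-Rspo3 and at most 0.0112 in WT and 0.668 in Apc. The Apc gene had 28.3 to 30.5 in Apc, 11.6 to 22.3 in WT and 12.8 to 20.4 in P-Rspo3. Its counts cover the whole gene and the exons removed are not given in the sources used here, so this level does not check the deletion. Summed FPKM of 5 epithelial markers overlapped between the groups (1670 to 2109 in WT, 1718 to 2188 in Apc and 1669 to 2116 in P-Rspo3), although 2 of them were called higher and 3 lower in Apc than in WT. A list of 7 stromal markers summed to at most 0.740 in any library, with Col3a1 at 3 counts or fewer in every library. The 6 immune markers summed to 3.68 to 10.2 in Apc and to 0.820 to 2.79 in the other groups. Of these 6, Cd68 was called higher in Apc than in WT (log2 fold change 2.55) and Csf1r lower (-3.92). Ptprc, Cd3e, Cd79a and Itgax had at most 3 counts in any Apc library. Markers of epithelial cell types differed in Apc, where 8 of 8 enterocyte markers were called lower than in WT. Their summed FPKM was 116 to 150 in Apc, 3356 to 9566 in WT and 2397 to 5363 in P-Rspo3. Of 5 stem cell markers, 4 were called higher in Apc than in WT and 1, Olfm4, lower, and of 5 Paneth cell markers 1 was called higher and 4 lower. All 5 goblet cell markers, 4 of 5 enteroendocrine and 4 of 5 tuft cell markers were called lower in Apc. The part of cell composition in the results on Apc below was not tested, and in bulk RNA more cells of a type and more RNA per cell cannot be told apart.

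The start-site regions of Bax, Bcl2l11 and Bbc3 are printed because these genes had the largest increases in Apc against WT. Bcl2l11 and Bbc3 have further start-site windows, and the window printed for each is that with a match to the FOXO motif given below. Each window runs from 250 bases before a RefSeq start site to 50 bases from it, on GRCm38.p6, and is written 5' to 3' on the gene's strand. The Bax window is chr7:45466849-45467148 on the minus strand, that of Bcl2l11 is chr2:128125788-128126087 on the plus strand, and that of Bbc3 is chr7:16310011-16310310 on the plus strand. Capitals mark matches on either strand to TCAAAG (the core of the TCF/LEF motif), TGTTTAC (the FOXO motif) or CACGTG (the E-box bound by MYC and MAX).
Bax: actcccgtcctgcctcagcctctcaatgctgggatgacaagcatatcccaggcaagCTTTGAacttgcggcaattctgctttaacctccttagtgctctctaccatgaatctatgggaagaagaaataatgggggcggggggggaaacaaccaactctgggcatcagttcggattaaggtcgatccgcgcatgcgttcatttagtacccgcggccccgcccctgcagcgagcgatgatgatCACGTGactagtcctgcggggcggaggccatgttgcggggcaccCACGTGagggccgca
Bcl2l11: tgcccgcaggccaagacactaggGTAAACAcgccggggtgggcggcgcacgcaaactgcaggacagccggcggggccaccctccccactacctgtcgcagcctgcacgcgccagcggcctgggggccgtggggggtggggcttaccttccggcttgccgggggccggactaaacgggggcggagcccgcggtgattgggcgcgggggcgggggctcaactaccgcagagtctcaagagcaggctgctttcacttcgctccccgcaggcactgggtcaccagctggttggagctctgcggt
Bbc3: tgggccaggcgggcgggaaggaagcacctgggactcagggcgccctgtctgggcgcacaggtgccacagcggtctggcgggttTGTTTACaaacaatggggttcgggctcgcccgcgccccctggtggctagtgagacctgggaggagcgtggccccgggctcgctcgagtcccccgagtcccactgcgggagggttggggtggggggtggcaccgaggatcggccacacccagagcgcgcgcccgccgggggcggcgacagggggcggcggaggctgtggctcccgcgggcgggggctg

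With the start site counted as 0, the Bax window held TCAAAG at -194 to -189 and CACGTG at -9 to -4 and 35 to 40. A p53 half-site lay at -201 to -192 and shared 3 of its bases with the TCF core. TGTTTAC lay at -227 to -221 in the Bcl2l11 window and at -167 to -161 in the Bbc3 window. Another window of Bbc3, chr7:16310181-16310480, overlapped the printed one and held CACGTG at -64 to -59. The Bbc3 window chr7:16309333-16309632 and the Bcl2l11 window chr2:128127325-128127624, neither of them printed, held none of these motifs. In total 9 of the 10 genes had a window that was searched, 16 windows in all, and the only other match was a p53 half-site in Bmf. Over 32851 RefSeq windows of the same length, 16.003% held TCAAAG, 3.65% TGTTTAC, 7.15% CACGTG and 8.36% a p53 half-site. The last 50 bases of the printed Bbc3 window were found in 0 transcripts of the GENCODE reference, against 1 for Bax and 3 for Bcl2l11. A match describes the letters in this window and nothing of what binds there.

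In Apc organoids 5 of the 10 genes were higher than in WT and 1 was lower. Bcl2l11 rose most, 3.28-fold, followed by Bbc3 at 2.56-fold, Bax at 2.06-fold, Bcl2 at 1.96-fold and Bcl2l1 at 1.60-fold, and Bak1 fell to 0.592 of its WT level. Calls rest on the quasi-likelihood test of edgeR on the counts, at a p under 0.05 after adjustment by the Benjamini-Hochberg method over the 16749 genes tested. Over all those genes 30.0% were called higher and 29.0% lower, so that a gene taken from the whole table had a similar chance of a call, and the balance of 5 higher to 1 lower is a description of a short list. The median log2 fold change was 0.59 over the 10 genes and 0.00058 over all genes tested. With a further demand of more than a doubling or halving (log2 fold change above 1 or below -1), 3 of the 10 were called higher and 0 lower, against 12.2% and 14.1% of all genes. The 3 were Bcl2l11, Bbc3 and Bax.

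**Figure D1:**
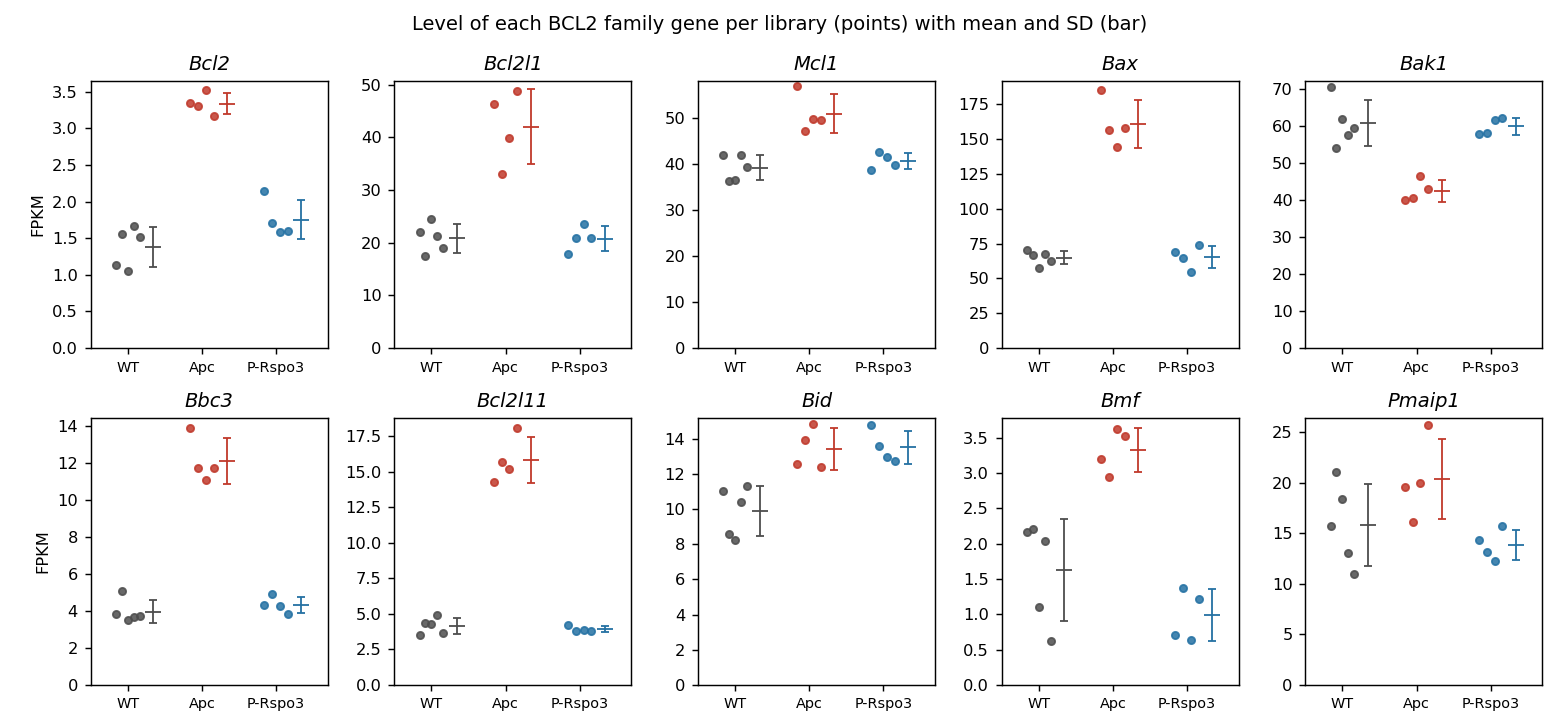
FPKM of each of the 10 genes on a linear axis from 0, with 1 point per library (WT n = 5, Apc n = 4, P-Rspo3 n = 4) and the mean and SD as a bar beside the points. Bax in Apc lies between 144 and 185, above every WT library (57.8 to 70.1), and Bak1 in Apc lies between 40.0 and 46.5, below every WT library (54.0 to 70.6).

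The effectors moved in opposite directions in Apc. Bax (chr7:45461697-45466898 on the minus strand of GRCm38) had an FPKM of 70.1, 66.6, 57.8 and 67.4 in WT lines 1, 2, 5 and 6 and 62.6 in the dox-naive culture. It had 185, 157, 144 and 158 in the Apc libraries of lines 1, 2, 5 and 6. The groups did not overlap, and Apc line 1 was the highest library. On the counts its log2 fold change was 1.04 (SE 0.077, adjusted p = 1.10e-06). It passed 1 by little, with 0.97 when Apc line 1 was left out, and 0.97 to 1.09 over the 9 fits that each left out a library.

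Bak1 (chr17:27019810-27029009 on the minus strand) had 70.6, 54.0, 61.8, 57.6 and 59.6 FPKM in WT lines 1, 2, 5 and 6 and the dox-naive culture. In Apc it had 40.0, 40.5, 46.5 and 43.0. Every Apc library lay below every WT library. Its log2 fold change was -0.76 (SE 0.10, adjusted p = 5.89e-05). Ggnbp1 on the other strand shares 437 exonic bases with it and held at most 204 counts in a library, against 1665 or more for Bak1. Whether the counting used strand is not given in the sources used here.

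The balance of the effectors shifted to Bax in Apc. The ratio of Bax to Bak1 in FPKM was 1.08 ± 0.124 in WT (SD, n = 5) and 3.82 ± 0.627 in Apc (SD, n = 4), with ranges of 0.935 to 1.23 and 3.10 to 4.62. Summed FPKM of the pair was 126 ± 8.64 in WT and 204 ± 15.04 in Apc.

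Of the antiapoptotic genes, Bcl2 and Bcl2l1 were higher in Apc and Mcl1 did not pass the test. Bcl2 (chr1:106538178-106714274, minus strand), the founding member of the family, was the least abundant of the 3, with 1.13, 1.56, 1.05, 1.66 and 1.51 FPKM in WT lines 1, 2, 5 and 6 and the dox-naive culture. Apc libraries had 3.35, 3.31, 3.52 and 3.17. The Apc libraries were close to each other and all above WT, in which lines 1 and 5 were low. The log2 fold change was 0.97 (SE 0.14, adjusted p = 0.000156), and it passed 1 when the WT line 2 or 6, the dox-naive culture or Apc line 6 was left out.

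Bcl2l1 (chr2:152780668-152831728, minus strand) had 17.5 to 24.4 FPKM in WT and 46.4, 33.0, 39.8 and 48.8 in the Apc libraries. Apc line 2 was the lowest of its group and still above every WT library. On the counts the log2 fold change was 0.68 (SE 0.11, adjusted p = 0.000291).

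Mcl1 (chr3:95658788-95663176, plus strand), a short-lived protein that binds BAK, was the most abundant antiapoptotic gene in all 3 groups. It had 36.3 to 42.0 FPKM in WT and 47.2 to 57.0 in Apc, ranges that did not overlap. In TMM-normalised CPM (counts scaled to library size and for differences in library composition), it had 155 ± 7.90 in WT (SD, n = 5) and 165 ± 14.5 in Apc (SD, n = 4), and the ranges overlapped. The log2 fold change on counts was 0.084, with a 95% interval of -0.071 to 0.24 (adjusted p = 0.331). Mcl1 made up 63.9% ± 2.83 of the summed FPKM of the 3 antiapoptotic genes in WT and 53.1% ± 3.17 in Apc, while Bcl2 made up 2.27% ± 0.514 and 3.50% ± 0.434.

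The ratio of Apc to WT was not the same in FPKM as in TMM CPM for any member. TMM normalisation multiplied the CPM of the Apc libraries by 0.853 to 0.887 and those of WT by 1.03 to 1.10, a step that FPKM lacks. In FPKM 9 of the 10 genes had ranges that did not overlap between Apc and WT, 8 above and Bak1 below, beside 37.9% of all genes tested with every Apc library above WT and 16.6% with every one below. On the TMM scale 6 did, 5 above and Bak1 below, beside 26.6% and 25.0% of all genes. Mcl1, Bid and Bmf were apart in FPKM and overlapped on the TMM scale. For Bmf the ratio of the Apc mean to the WT mean was 2.04 in FPKM and 1.42 in TMM CPM, a wider gap than for the other genes, and its CPM per unit of FPKM varied between libraries before any TMM step. Over all genes tested, the median log2 difference in FPKM between Apc and WT was 0.28 with a pseudocount of 0.1 and 0.17 with a pseudocount of 1. The log2 differences of Mcl1 (0.37) and Bid (0.44) on the first of these scales are to be read against that median.

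**Figure D2:**
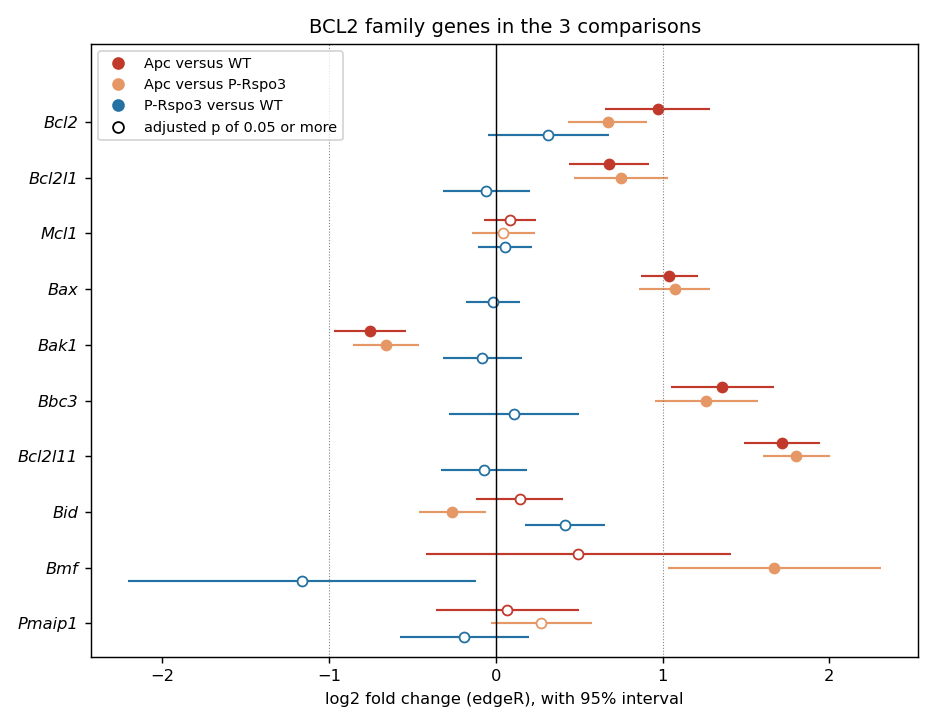
Log2 fold change of each gene on the x axis with its 95% interval from edgeR, for Apc versus WT, Apc versus P-Rspo3 and P-Rspo3 versus WT. Filled points have an adjusted p under 0.05 and dotted lines mark -1 and 1. The first 2 comparisons share the Apc libraries, and their largest values are those of Bcl2l11, 1.72 and 1.80, while 0 points are filled for P-Rspo3 versus WT.

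Among the BH3-only genes the increases of Bcl2l11 and Bbc3 stood beside 3 genes that did not pass the test. Bcl2l11 (chr2:128126038-128162547, plus strand), whose product BIM binds all the antiapoptotic proteins, had 3.49, 4.32, 4.28 and 4.93 FPKM in WT lines 1, 2, 5 and 6 and 3.64 in the dox-naive culture. The Apc libraries had 14.3, 15.7, 15.2 and 18.1. Line 6 was the highest in both groups, and the gap between the groups was larger than the spread within either. The log2 fold change was 1.72 (SE 0.10, adjusted p = 2.51e-07), between 1.66 and 1.77 when any library was left out.

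Bbc3 (chr7:16308393-16318205, plus strand) had 3.85, 5.07, 3.51, 3.68 and 3.71 FPKM in WT lines 1, 2, 5 and 6 and the dox-naive culture, with line 2 standing above the other 4. In Apc lines 1, 2, 5 and 6 it had 13.9, 11.7, 11.1 and 11.7, all above WT. These rest on 170 to 263 counts in WT and 658 to 810 in Apc. Its log2 fold change was 1.36 (SE 0.14, adjusted p = 1.20e-05).

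Bid (chr6:120891930-120916853, minus strand), which links death receptors to mitochondria once caspase-8 has cut it, had 8.24 to 11.3 FPKM in WT and 12.4 to 14.9 in Apc. On counts its log2 fold change was 0.14 (95% interval -0.12 to 0.40, adjusted p = 0.326). Bid shares 628 exonic bases with Bcl2l13 on the other strand, which held up to 3443 counts in a library, more than Bid itself (580 to 1270), so reads in the shared stretch are uncertain.

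Bmf (chr2:118528757-118549687, minus strand) was the most variable gene of the list. It had 415, 326, 152, 283 and 60 counts in WT lines 1, 2, 5 and 6 and the dox-naive culture and 334, 417, 457 and 612 in Apc. The groups overlapped in TMM CPM (8.36 ± 4.62 against 11.8 ± 2.54), and the log2 fold change was 0.49 with a wide 95% interval of -0.42 to 1.41 (adjusted p = 0.332). In FPKM, by contrast, WT had 0.617 to 2.21 and Apc 2.94 to 3.62. The 2 units are built from the same reads but diverged for Bmf from library to library, with 2.68 to 5.84 raw CPM for each unit of FPKM. For the other 9 genes this quotient differed by at most 1.23 times between libraries, and for Bmf by 2.17 times. FPKM from cufflinks weighs the transcripts of a gene by their lengths, which counts per gene do not.

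**Figure D3:**
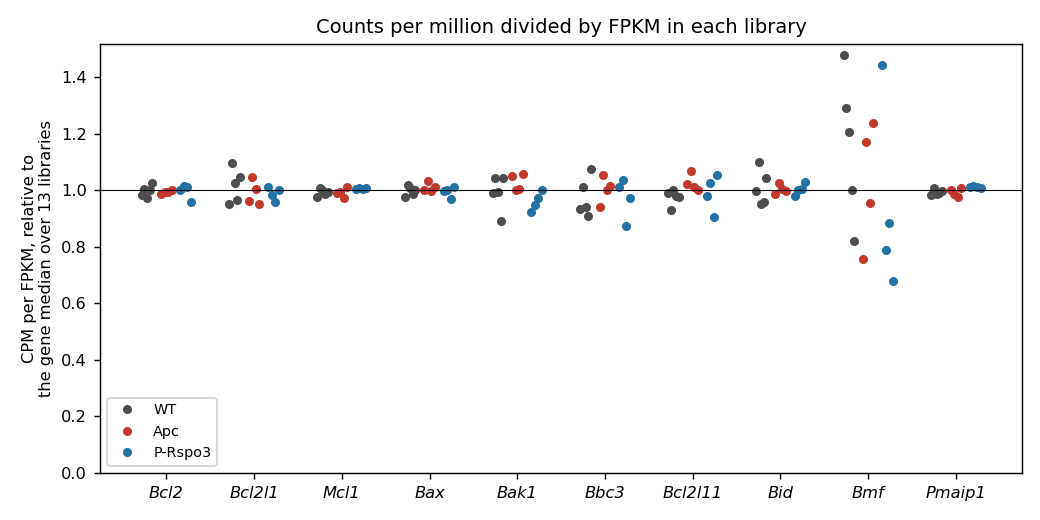
Raw CPM divided by FPKM for each gene and library, on the y axis relative to the gene's median over the 13 libraries, with points coloured by group. Bmf spans 0.679 to 1.48, and the other 9 genes stay between 0.872 and 1.10.

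Pmaip1, whose product NOXA binds chiefly MCL1, had 10.95 to 21.0 FPKM in WT and 16.1 to 25.7 in Apc, with the dox-naive culture the lowest WT library and line 2 the highest. The ranges overlapped. Its log2 fold change of 0.068 (95% interval -0.36 to 0.50, adjusted p = 0.798) changed sign with the libraries used.

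P-Rspo3 organoids showed 0 of the 10 genes called against WT, higher or lower, by either rule. Over the 15992 genes tested, 0.00625% were called higher and 0% lower by adjusted p, and the same 0.00625% and 0% with the fold threshold added. The 1 gene behind these shares is Rspo3, and 2159 genes had an unadjusted p under 0.05. The test is close to silent over the whole table, and the count of 0 among the 10 genes matches that background. By the same test 2 of the 10 genes, Bid and Bmf, had an unadjusted p under 0.05. DESeq2 called 1 of the 10, Bid, and limma on FPKM 0, and over all genes DESeq2 called 204 higher and 304 lower. The 95% interval of the fold change was 0.882 to 1.11 for Bax, 0.802 to 1.11 for Bak1, 0.928 to 1.16 for Mcl1, 0.803 to 1.15 for Bcl2l1 and 0.797 to 1.14 for Bcl2l11. For Bcl2 it was 0.969 to 1.60, for Bbc3 0.824 to 1.41 and for Pmaip1 0.671 to 1.15. Bcl2 had 2.14, 1.71, 1.59 and 1.58 FPKM in P-Rspo3 15d, 4d, M and F, with 15d and 4d above every WT library. Bbc3 had 4.30, 4.90, 3.83 and 4.29, within the WT range of 3.51 to 5.07.

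The largest differences between P-Rspo3 and WT were those of Bmf and Bid, in opposite directions. Bid had 11.0, 8.56, 8.24, 10.4 and 11.3 FPKM in WT lines 1, 2, 5 and 6 and the dox-naive culture and 14.8, 13.6, 12.7 and 12.97 in P-Rspo3 15d, 4d, M and F. All 4 P-Rspo3 libraries of the group were above all the WT libraries, in FPKM and in TMM CPM, and the dox-naive culture was the WT library nearest to them. One of the libraries left out for its title carries the genotype Ptprk-Rspo3, and its 9.31 FPKM of Bid lies within the WT range, so the separation does not hold if that genotype is taken as given. The log2 fold change was 0.42 (SE 0.11, unadjusted p = 0.00302, adjusted p = 0.151). Bid was called by DESeq2 on the same genes (adjusted p = 0.0233) and by edgeR without the dox-naive culture (log2 fold change 0.49, adjusted p = 0.0421), and the adjusted p of its other alternatives was 0.0814 to 0.388. Without the dox-naive culture, however, 232 genes were called higher and 153 lower in this comparison, against 1 and 0 with it. The added call of Bid thus came with many others. All WT libraries of that fit were flox lines, so line and genotype cannot be told apart in it.

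Bmf had 131, 128, 134 and 51 counts in P-Rspo3 15d, 4d, M and F, below the 152 to 415 of the WT flox lines. The dox-naive culture, with 60, lay among the P-Rspo3 libraries. The library left out for its title with the genotype label Ptprk-Rspo3 had 328 counts, within the range of the flox lines. The log2 fold change against all 5 WT libraries was -1.16 (SE 0.47, unadjusted p = 0.0326, adjusted p = 0.319), and without the dox-naive culture it was -1.41 (adjusted p = 0.0704). The flox lines and the other cultures are different lines, so for Bmf the line and the genotype cannot be told apart.

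Compared directly, Apc and P-Rspo3 shared their medium but came from different lines, so line and genotype cannot be told apart. Apc had 6 of the 10 genes called higher than P-Rspo3 and 2 called lower, over 16456 genes of which 28.7% were called higher and 27.7% lower. With the fold threshold added, 4 were higher and 0 lower, against 13.4% and 13.3% of all genes. The comparison shares the Apc libraries with that against WT. The 4 were Bcl2l11 (log2 fold change 1.80, SE 0.090), Bmf (1.67, SE 0.28), Bbc3 (1.26, SE 0.14) and Bax (1.07, SE 0.094). Bcl2l1 (0.75) and Bcl2 (0.67) were called without passing the fold threshold, and the adjusted p of these 6 was at most 0.000778 by edgeR. Bcl2l11 had 4.20, 3.80, 3.82 and 3.84 FPKM in P-Rspo3 15d, 4d, M and F, and Bax had 68.7, 64.7, 73.7 and 54.4, all below every Apc library. For Bmf the Apc libraries, 334 to 612 counts, were all above the grouped P-Rspo3 libraries, 51 to 134. The left-out library with the genotype label Ptprk-Rspo3 had 328 counts, just below the lowest Apc library. Beside this, the dox-naive WT culture had 60 counts and the WT flox lines 152 to 415, and Apc against the flox lines alone gave a log2 fold change of 0.25 for Bmf (adjusted p = 0.461 by edgeR).

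Bak1 was lower in Apc than in P-Rspo3, with a log2 fold change of -0.66 (SE 0.088, adjusted p = 0.000185), and had 57.9 to 62.1 FPKM in P-Rspo3. The second gene called lower, Bid, differed by -0.26 (SE 0.089, adjusted p = 0.0309). This call is at the edge of the threshold, since it was lost when Apc line 1 or 6 or P-Rspo3 15d, 4d or F was left out (adjusted p 0.0546 to 0.0854), in the fit of all 3 groups (adjusted p = 0.0606) and without the FPKM filter (adjusted p = 0.0508). The Bid ranges of the groups overlapped in FPKM and not in TMM CPM, and limma on FPKM did not call it. Mcl1 (0.045, adjusted p = 0.685) and Pmaip1 (0.27, adjusted p = 0.113) did not pass. Pmaip1 passed when Apc line 2 was left out (0.37, adjusted p = 0.0290), and by limma on log2(FPKM + 1) (0.51, adjusted p = 0.0105).

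The order of the genes by level was much alike in WT and P-Rspo3. In WT it ran from Bax (64.9 ± 4.79 FPKM, SD, n = 5) through Bak1 (60.7 ± 6.21), Mcl1 (39.2 ± 2.76), Bcl2l1 (20.8 ± 2.69), Pmaip1 (15.8 ± 4.03), Bid (9.91 ± 1.42), Bcl2l11 (4.13 ± 0.579), Bbc3 (3.96 ± 0.633) and Bmf (1.63 ± 0.726) to Bcl2 (1.38 ± 0.273). Ranges overlapped between Bax and Bak1, between Bcl2l1 and Pmaip1, between Pmaip1 and Bid, between Bcl2l11 and Bbc3 and between Bmf and Bcl2, and these neighbours were not separated by the libraries. In P-Rspo3 the same genes held the first 6 places, Bbc3 (4.33 ± 0.441, SD, n = 4) came before Bcl2l11 (3.92 ± 0.191), and Bcl2 (1.75 ± 0.262) before Bmf (0.984 ± 0.368). Ranges there overlapped between Bax and Bak1, between Pmaip1 and Bid and between Bbc3 and Bcl2l11, and were apart for Bcl2 and Bmf. Pmaip1 was above Bid in 1 of 4 libraries.

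In Apc the order changed around Bax, Bak1 and Bcl2l11. Bax (161 ± 17.2 FPKM, SD, n = 4) stood apart from every other gene, Mcl1 (50.9 ± 4.22) came before Bak1 (42.5 ± 2.93), and Bak1 and Bcl2l1 (42.0 ± 7.10) overlapped. Pmaip1 (20.3 ± 3.96) overlapped with Bcl2l11 (15.8 ± 1.61), which came before Bid (13.4 ± 1.19) and Bbc3 (12.1 ± 1.24), with overlapping ranges between each and the next, and Bcl2 (3.34 ± 0.146) and Bmf (3.32 ± 0.312) closed the list.

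Genes of all 3 roles were called higher in Apc than in WT, beside 30.0% of all genes tested, and the effector Bak1 was called lower. The ratio of Bax to Bcl2 was close in WT and Apc while both genes differed. Bax to Bcl2, a ratio often taken as a summary of the family, was 48.3 ± 9.61 over the 5 WT libraries (SD), 48.4 ± 5.96 over the 4 Apc libraries and 37.7 ± 6.21 over the 4 P-Rspo3 libraries. The 3 ranges overlapped. Bcl2l11 to Bcl2l1 was 0.201 ± 0.0373 in WT, 0.384 ± 0.0695 in Apc and 0.191 ± 0.0315 in P-Rspo3, with every Apc library (0.308 to 0.476) above the others. Summed FPKM of the antiapoptotic genes was 61.4 ± 4.02 in WT, 96.2 ± 10.2 in Apc and 63.2 ± 3.59 in P-Rspo3. The BH3-only genes summed to 35.46 ± 3.96, 65.0 ± 4.59 and 36.6 ± 1.83. These sums and that of the effectors are in FPKM, which lacks the TMM step. They include Mcl1, Bid, Bmf and Pmaip1, which edgeR on counts did not call in Apc against WT. The ratios and sums are of RNA levels, which need not follow those of the proteins, and they were not tested.

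**Figure D4:**
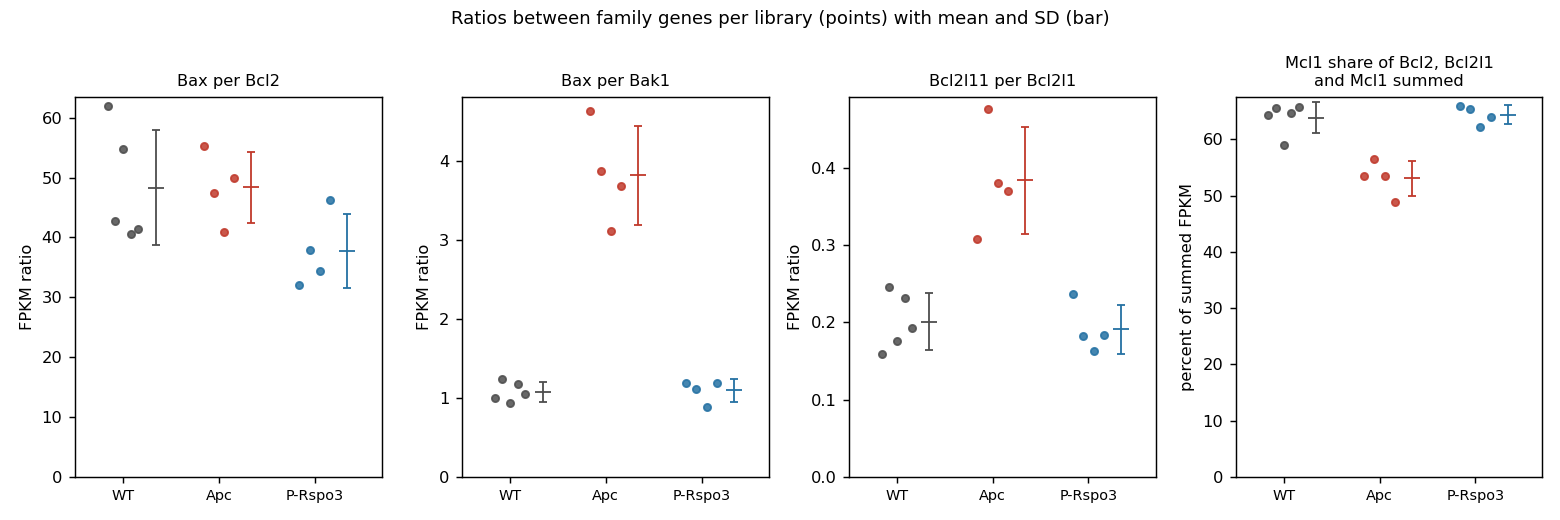
FPKM ratios of Bax to Bcl2, Bax to Bak1 and Bcl2l11 to Bcl2l1, and the share of Mcl1 in the summed FPKM of Bcl2, Bcl2l1 and Mcl1 in percent, with 1 point per library (WT n = 5, Apc n = 4, P-Rspo3 n = 4) and the mean and SD as a bar. The Bax to Bak1 ratio lies between 3.10 and 4.62 in Apc and between 0.882 and 1.23 in the other groups, while the Bax to Bcl2 ratios of the 3 groups overlap.

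The rest of the BCL2 family changed in both directions in Apc, where 30.0% of all genes tested were called higher than in WT and 29.0% lower. Of 15 further genes 10 could be tested against WT, and 5 were called higher and 4 lower, with a median log2 fold change of 0.15. Bok, an effector related to BAX and BAK, was at 9.46 ± 2.19 FPKM (SD) over the 5 WT libraries and at 30.5 ± 6.004 over the 4 Apc libraries, a log2 increase of 1.46 (adjusted p = 2.60e-05). Bik, a BH3-only gene of the endoplasmic reticulum, rose by 1.09 from 12 to 26 counts in WT to 45 to 66 in Apc. The mitophagy receptors Bnip3 (0.77) and Bnip3l (0.30) and Bcl2l12 (0.53) were also called higher. Bcl2l15 fell most, with a log2 fold change of -5.47 (adjusted p = 1.54e-08) and 60.5 ± 12.9 FPKM in WT against 1.37 ± 0.359 in Apc. Bcl2l14 (-0.98), the BH3-only gene Bad (-0.67) and the antiapoptotic gene Bcl2l2, which encodes BCL-W (-0.44), were called lower too. Bcl2l13 (0.0053) was not called. The remaining 5, Bcl2l10, Bcl2a1a, Bcl2a1b, Bcl2a1d and Hrk, had at most 6 counts in any library of the 3 groups, and the Bcl2a1 genes are near-identical copies between which reads can be split. Against P-Rspo3, in a comparison with the same Apc libraries, 5 were called higher and 4 lower, from Bok (2.27) to Bcl2l15 (-5.98). Between P-Rspo3 and WT 0 of 11 were called, and Bok had the smallest p (log2 fold change -0.79, unadjusted p = 0.00117, adjusted p = 0.124).

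The apoptosome and caspase genes were also mixed in Apc. Of all genes, the same 30.0% were called higher and 29.0% lower, or 12.2% and 14.1% with the fold threshold. Of 7 genes of the apoptosome and the proteins released with cytochrome c, 1 was called higher than in WT and 4 lower, with a median log2 fold change of -0.37. Apaf1, the scaffold of the apoptosome, rose by 1.00 from 8.22 ± 1.08 FPKM (SD, n = 5) to 19.5 ± 0.994 (SD, n = 4), while Endog, a mitochondrial nuclease (-1.29), and Cycs, cytochrome c itself (-0.75), fell. With the fold threshold added, 1 was higher and 1 lower. Among 9 caspases 3 were called higher and 4 lower (2 and 2 with the fold threshold, median -0.33). The largest decrease was that of Casp1, an inflammatory caspase (-2.17). The largest increases were those of Casp12 (5.41) and Casp14 (4.16), both almost unread in WT, with 0 to 12 and 0 to 7 counts, against 204 to 409 and 59 to 89 in Apc. Of 9 inhibitor of apoptosis (IAP) genes 1 was called higher and 5 lower (0 and 3 with the fold threshold, median -0.63), and the 1 was Xiap (0.21), which encodes a direct caspase inhibitor. Naip1 (-3.47), which is a sensor of the inflammasome, and Birc3 (-1.36) fell most, and 4 of the 5 that fell were Naip genes, a family of similar copies.

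Lists upstream of the family split in different ways, again beside 30.0% of all genes called higher and 29.0% lower, or 12.2% and 14.1% with the fold threshold. Of 9 death receptor genes 1 was called higher in Apc, Tnfrsf10b (0.83), and 5 lower (0 and 2 with the fold threshold, median -0.23), with the largest decreases in the receptor Tnfrsf1a (-1.25) and its adaptor Tradd (-1.13). Of 17 p53 targets 13 were called higher and 3 lower (10 and 1 with the fold threshold), with a median log2 fold change of 1.17. Plk2 (2.87) and Phlda3 (2.78) rose most, and Sesn1 (-1.77) and Fas (-0.998) fell most. Fas and Tnfrsf10b stand in both lists. Of 16 genes that control the BH3-only genes or the turnover of family proteins 15 were tested, and 4 were called higher and 7 lower (0 and 1 with the fold threshold, median 0.027). Trim17 (0.99), a ubiquitin ligase for MCL1 read at only 4 to 30 counts in these 2 groups, and the dynein light chain Dynll1 (0.82) rose most. Ddit3, the stress factor CHOP (-2.41), and its regulator Atf4 (-0.93) fell most.

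Against P-Rspo3 the lists split as follows in Apc, in a comparison that shares the Apc libraries with the one against WT. Of all genes 28.7% were called higher and 27.7% lower. The counts called higher and lower were 1 and 4 of 7 for the apoptosome list, 3 and 4 of 9 for caspases, 0 and 6 of 9 for IAP genes, 1 and 5 of 9 for death receptor genes, 12 and 2 of 17 for p53 targets and 3 and 6 of 14 for the upstream list. Between P-Rspo3 and WT 0 genes of any of these lists were called. The lowest adjusted p among them was 0.0957, of the IAP list.

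**Figure D5:**
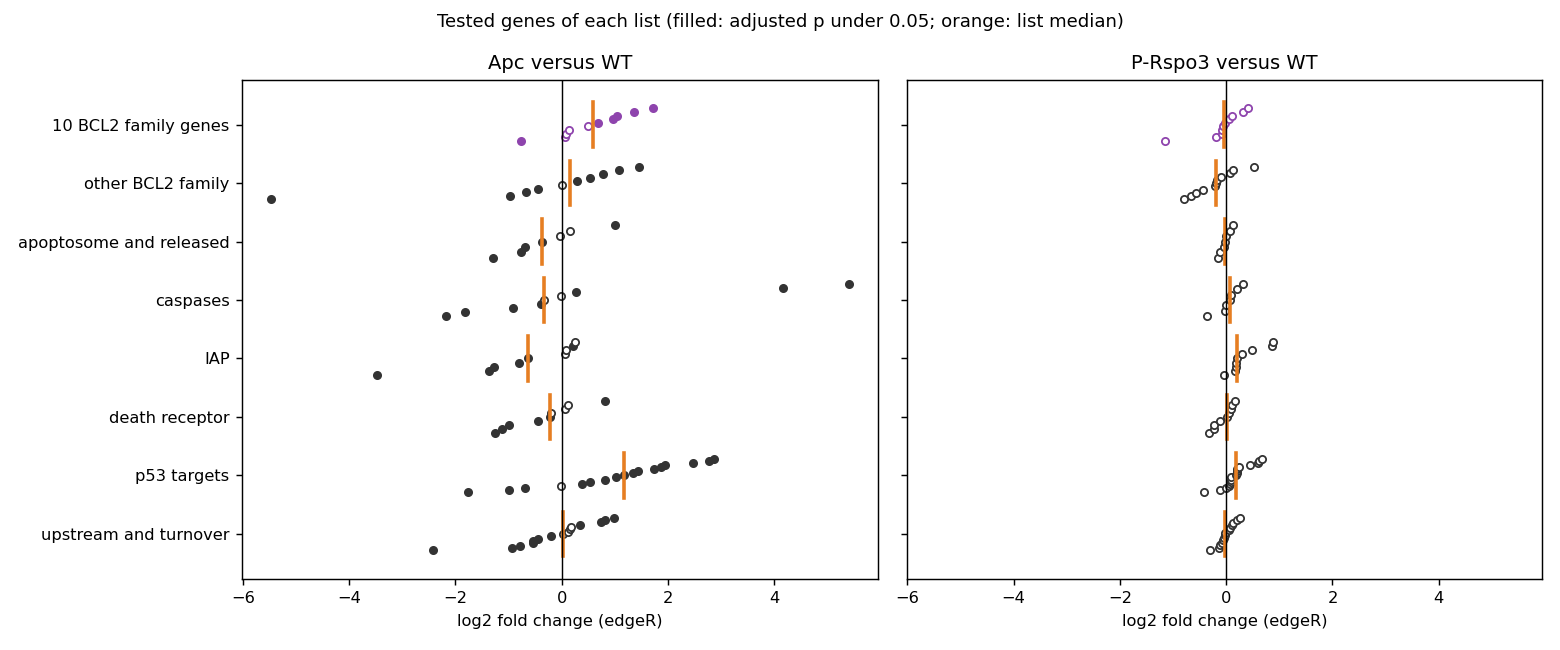
Log2 fold change from edgeR on the x axis for every tested gene of the 10 followed here and of 7 further lists, for Apc versus WT and P-Rspo3 versus WT. Filled points have an adjusted p under 0.05 and orange lines mark list medians, which for Apc versus WT run from -0.63 (IAP) to 1.17 (p53 targets), with 0.59 for the 10 genes, and all points are open for P-Rspo3 versus WT.

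Over the 13 libraries, Pearson's r of log2 TMM CPM among the 5 genes called higher in Apc than in WT ran from 0.62 between Bcl2 and Bcl2l1 to 0.95 between Bax and Bcl2l11. Between Bak1 and these 5 it ran from -0.72 for Bcl2l1 to -0.93 for Bcl2l11. The 4 Apc libraries form a cluster of their own, so these values describe the gap between the groups. Mcl1, Bid and Pmaip1 were less close to the 5 genes, with r from -0.25 between Bid and Bcl2l1 to 0.50 between Mcl1 and Bcl2l1. For Bmf, r to the 5 genes ran from 0.33 for Bcl2 to 0.61 for Bax. Of all genes tested in Apc against WT, the closest in pattern to each member by the same measure were Loxl2 for Bcl2l11 (r = 0.996), Cep57 for Bcl2 (0.990), Atg9b for Bax (0.988), Derl1 for Bak1 (0.985), 9230114K14Rik for Bbc3 (0.975) and Klrg2 for Bcl2l1 (0.958). Those of the remaining genes were less close, namely Sncb for Bmf (0.939), Pacs2 for Bid (0.901), Ezr for Pmaip1 (0.881) and Kti12 for Mcl1 (0.821). With r above 0.95 there were 708 genes for Bcl2l11, 529 for Bax, 393 for Bak1, 106 for Bbc3, 48 for Bcl2 and 2 for Bcl2l1, and 0 for Mcl1, Bid, Bmf and Pmaip1.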

How the data were processed

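PolyA RNA of intestinal organoids was sequenced, and 13 libraries were grouped by their genotype labels as WT, Apc and P-Rspo3. The authors aligned reads with STAR to GRCm38, deposited raw read counts per gene from HTSeq 0.6.0 and deposited FPKM values from cufflinks 2.2.1. Whether counting used strand is not given in the sources used here. Libraries held 28902729 to 35528495 counted reads.

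Counts were tested in R 4.3.3 with edgeR 4.0.16 (TMM normalisation, quasi-likelihood test in its older form), in a separate fit for each pair of groups. Genes were kept where FPKM reached 0.1 in a number of libraries equal to the size of the smaller group, and p was adjusted by the Benjamini-Hochberg method over all of them. A call needed an adjusted p under 0.05, and by a stricter rule also a log2 fold change above 1 or below -1. SE is the log2 fold change divided by the square root of F, and intervals are at 95%. Levels between genes were compared in FPKM, which is per length. Errors are SD over libraries. The scripts were tested on simulated data.

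Alternatives were DESeq2 1.42.0, its size factors in edgeR, the newer quasi-likelihood form, other filters, all 3 groups in 1 fit, limma 3.58.1 on log2 FPKM with a pseudocount of 1 or 0.1, each library left out, and the line number as a block. Same-numbered WT and Apc libraries are the same flox lines by their labels. Their deviations from the group means had correlations of 0.016 to 0.200 (4 pairs), with a median of 0.094, against a median of -0.031 between different lines (12 pairs).

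All 10 genes were described. Of other lists at most the 2 largest increases and 2 largest decreases among called genes were named, except for the rest of the BCL2 family, where any tested gene could be. The 10 genes and the lists were chosen with earlier results of these data known. Start-site sequences came from RefSeq (GRCm38.p6). For Pmaip1, position and sequence are not reported here.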

Additional observations from a re-analysis of the deposited data

Results flagged for a closer look

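In WT, Bbc3 had an FPKM of 5.07 in line 2 and 3.51 to 3.85 in the other 4 libraries, a gap large for the range of the group. In P-Rspo3, Bcl2l11 had 4.20 in 15d and 3.80 to 3.84 in the other 3. Among 30 groups of values examined, such a gap arises by chance in about 1 of 20, so these 2 are near the number that chance gives. Bmf had an FPKM of 2.29 in a library left out of the groups because its title does not match its genotype label, Ptprk-Rspo3 in EN. This lies above the 0.617 to 2.21 of the 5 WT libraries and above the 0.636 to 1.38 of the 4 P-Rspo3 libraries, and it was compared with neither by a test.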

How the results depend on the processing

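Precision was limited by 4 or 5 libraries a group, and for Bmf and Bbc3 by counts of 51 to 810. For Apc against WT, limma on FPKM called 8 genes higher with either pseudocount, adding Mcl1, Bid and Bmf, and 6 with the fold threshold at a pseudocount of 0.1, adding Bcl2, Bcl2l1 and Bmf. FPKM lacks the TMM step, and limma split all genes into 7199 higher and 3219 lower (pseudocount 1) or 7204 and 3259 (0.1), against 5028 and 4864 by edgeR. Leaving out a library gave 2 to 4 genes past the fold threshold, with Bax lost without Apc line 1. For P-Rspo3 against WT, 1 gene, Bid, was called higher by DESeq2 and without the dox-naive culture, for a range of 0 to 1 when libraries were left out. For Apc against P-Rspo3, 1 gene was called lower, Bid being lost, without the FPKM filter, by both limma fits and with all 3 groups in 1 fit, and 1 to 2 when libraries were left out. The sign turned for genes near 0. For Pmaip1 in Apc against WT it was -0.035 with the replicate block and -0.059 to 0.19 when libraries were left out. For Bax in P-Rspo3 against WT it was 0.0044 by both limma fits and -0.067 to 0.037, for Bcl2l1 -0.15 to 0.021, and for Mcl1 in Apc against P-Rspo3 -0.016 to 0.080. The replicate block, which drops the dox-naive culture, left 5 genes higher and 1 lower, with 4 past the fold threshold (Bcl2 at 1.04), and changed no other call. In TMM CPM in place of FPKM, the mean of Apc over that of WT was 1.97 for Bcl2, 1.60 for Bcl2l1, 1.06 for Mcl1, 2.07 for Bax, 0.594 for Bak1, 2.57 for Bbc3, 3.30 for Bcl2l11, 1.11 for Bid and 1.42 for Bmf, and P-Rspo3 over WT was 0.939 for Bak1. Of the fold changes refitted, 477 kept their direction and side of the threshold, 13 passed it newly, 9 no longer passed it and 11 changed sign. Where no construction of the alternative is named, the cause was not tested.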

Other observations

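A further 2 libraries entered no group because their titles do not match their genotype labels. The first, with the genotype label Dox naive (WT) and grown in ENR, had these FPKM values: 58.4 for Bax, 65.5 for Bak1, 41.6 for Mcl1, 20.6 for Bcl2l1, 1.39 for Bcl2, 3.71 for Bbc3, 3.64 for Bcl2l11, 9.70 for Bid, 1.04 for Bmf and 12.2 for Pmaip1. The second, with the genotype label Ptprk-Rspo3 and grown in EN, had 69.2 for Bax, 57.2 for Bak1, 41.6 for Mcl1, 21.6 for Bcl2l1, 1.60 for Bcl2, 4.04 for Bbc3, 3.18 for Bcl2l11, 9.31 for Bid, 2.29 for Bmf and 16.02 for Pmaip1. In both, Bax, Bbc3 and Bcl2l11 lay below every Apc library (144, 11.1 and 14.3 at the lowest), and Bid lay below each of the 4 grouped P-Rspo3 libraries (12.7 at the lowest). With the second library counted as P-Rspo3, as its genotype label reads, Bid would no longer separate P-Rspo3 from WT.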
